A study of Mus musculus with 9 samples.

Results

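Transporter genes of the liver were followed in 9 mice conceived in 3 ways. The genes were the protein-coding members of the SLCO family (organic anion transporting polypeptides, OATPs), the SLC22 family (organic anion, cation and carnitine transporters) and the ATP-binding cassette (ABC) families A, B, C, D and G, found by the start of their symbol in the GENCODE vM21 annotation. There were 83 such genes among the 55335 genes of the table, and 2 further genes with these prefixes were left out by the rule. Of the 83, 24 belong to SLC22, 16 to ABCA, 14 to SLCO, 10 to ABCC, 9 to ABCB, 6 to ABCG and 4 to ABCD.

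The study compared livers of male B6D2F2 offspring, 20 weeks old, fed normal chow and killed after a fast of 4 h, with 3 mice in each group. NC-chow mice (numbered 1, 5 and 6) were conceived naturally, IVF-chow mice (2, 3 and 4) came from fresh 2-cell embryos fertilized in vitro, and FET-chow mice (2, 3 and 4) came from such embryos that had been frozen and thawed. Only the IVF and FET embryos passed through superovulation, culture and transfer to the oviducts of pseudopregnant ICR females, so each contrast with NC-chow joins all of those steps, and FET-chow against IVF-chow joins the freezing, the thawing and the culture that followed it. Litters are not named in the labels, so mice of a group may share one, and the p-values measure the spread between these mice.

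Hepatocytes take up drugs, hormones, bilirubin and bile constituents from blood through OATP and SLC22 carriers in the sinusoidal membrane, and these carriers use no ATP. ABC pumps then use ATP to move the substrates or their conjugates into bile across the canalicular membrane, or back to blood across the sinusoidal one. Other ABC proteins move lipids, serve peroxisomes, lysosomes and mitochondria, or are hardly used in liver.

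Expression was measured as FPKM, which scales fragments to transcript length and to all mapped fragments of a library, so levels of different genes can be compared per length. Mapped fragments, estimated from the steps in low FPKM values, numbered 6600000 to 13350000 in NC-chow, 3900000 to 8430000 in IVF-chow and 2020000 to 2940000 in FET-chow. Between 3.49% and 61.9% of all FPKM lay in 3 non-coding entries, with the highest share in IVF-chow mouse 2, and the FPKM left for nuclear protein-coding genes summed to 93806 to 156593 in NC-chow, 39170 to 230355 in IVF-chow and 45387 to 129280 in FET-chow. Values were therefore also rescaled to that sum. The number that ends each library name was 67 for NC-chow mouse 1, close to the 71 to 76 of both embryo-transfer groups, and stood well apart from these for NC-chow mice 5 and 6. The tissue label fitted its markers, since the summed FPKM of 8 hepatocyte genes was 10626 to 19693 in NC-chow, 3568 to 31768 in IVF-chow and 4736 to 15915 in FET-chow. In whole liver, fewer cells of a type and less RNA per cell cannot be told apart.

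Of the 83 transporter genes, 16 were listed at 0 in all 9 mice and 67 were detected in 1 mouse or more. The former included Slco1a5 and Slco1a6, and Slc22a6, Slc22a12 and Slc22a2, which are known from kidney. Another 36 had a mean FPKM under 1, among them Abcb1a and Abcb1b (the P-glycoproteins, means of 0.0943 and 0.289) and Abcc4 (0.162). The remaining 31 had a mean of at least 1 and were tested. They were 7 SLC22, 5 ABCA, 5 ABCB, 4 SLCO, 4 ABCC, 3 ABCD and 3 ABCG genes. Per mouse, 35 to 52 transporter genes were above 0 in FET-chow, 47 to 57 in NC-chow and 52 to 56 in IVF-chow, and the part of depth in this was not tested.

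**Figure D1:**
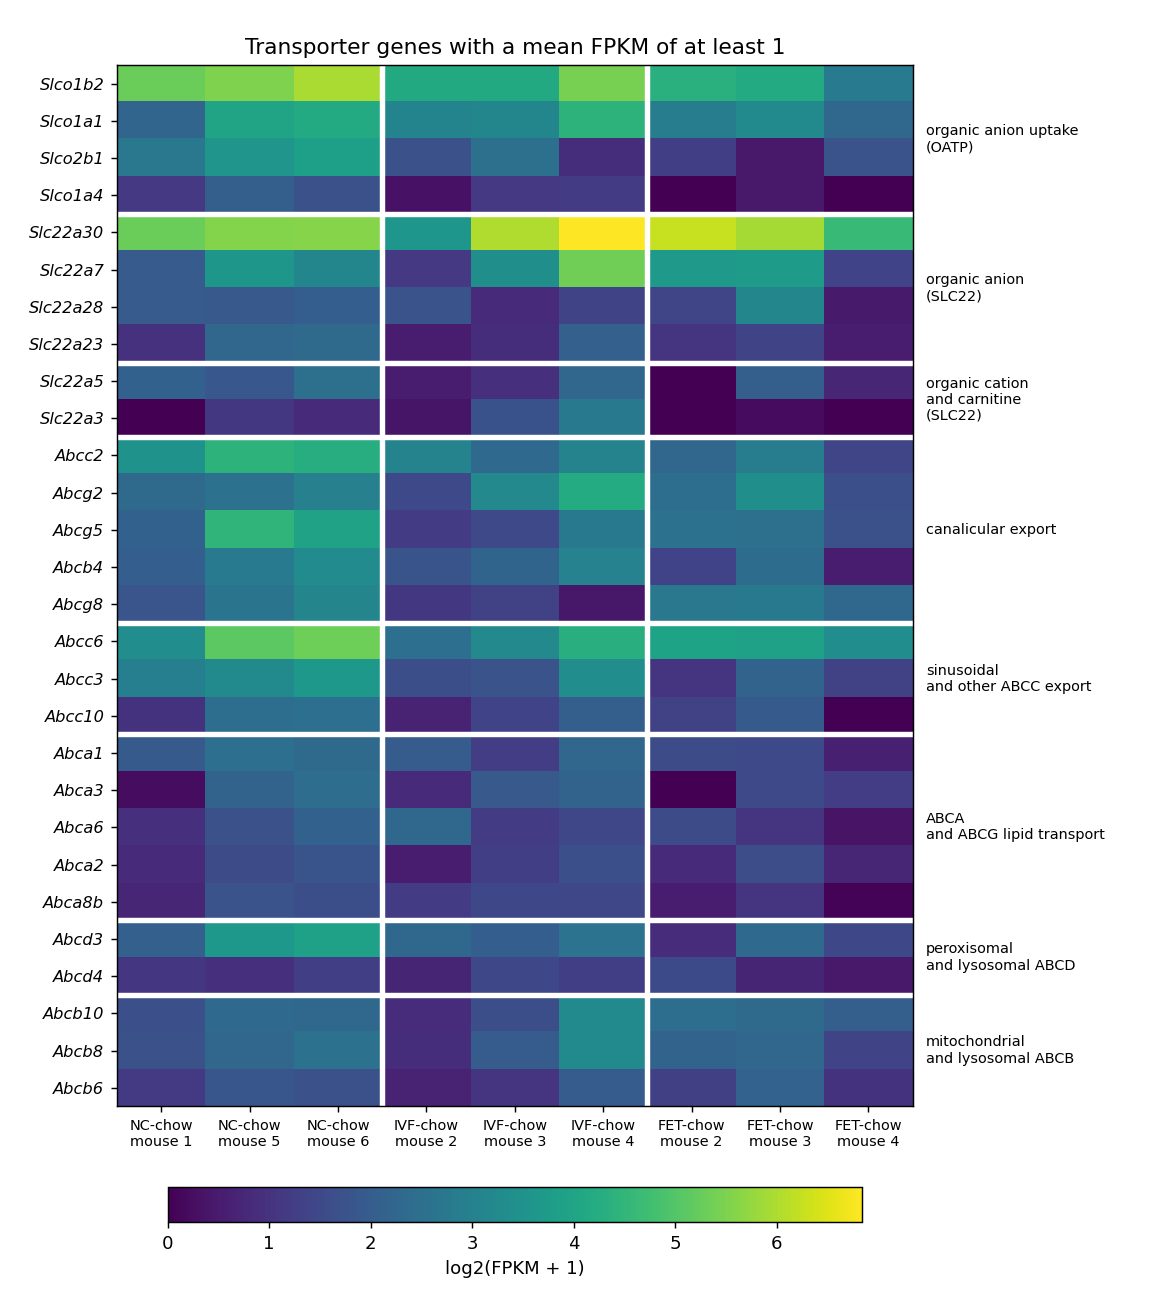
Expression of 28 of the 31 transporter genes tested, in rows grouped by role, in each of the 9 mice, in columns grouped by conception. Colour gives log2(FPKM + 1) from 0 (dark) to its highest value (yellow, Slc22a30 in IVF-chow mouse 4), and the bright rows are Slc22a30, Slco1b2 and Abcc6.

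The order of levels within a mouse was led by few genes. Slc22a30, one of a rodent cluster of SLC22 organic anion transporters on chromosome 19, ranked first in 6 mice, and Slco1b2, the main OATP of mouse hepatocytes and the counterpart of human OATP1B1 and OATP1B3, ranked first in the other 3. Both were among the 5 highest transporter genes in all 9 mice. Abcc6, a basolateral ABC protein needed for ATP release and the control of calcification, was among the 5 highest in 6 mice.

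Summed over all members, transporter FPKM was 173, 321 and 372 in the NC-chow mice, 91.2, 187 and 441 in the IVF-chow mice, and 196, 245 and 83.3 in the FET-chow mice. The groups overlapped. Per nuclear protein-coding FPKM the transporters made up 0.185% to 0.237% in NC-chow, 0.172% to 0.233% in IVF-chow and 0.184% to 0.215% in FET-chow, again with overlap.

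**Figure D2:**
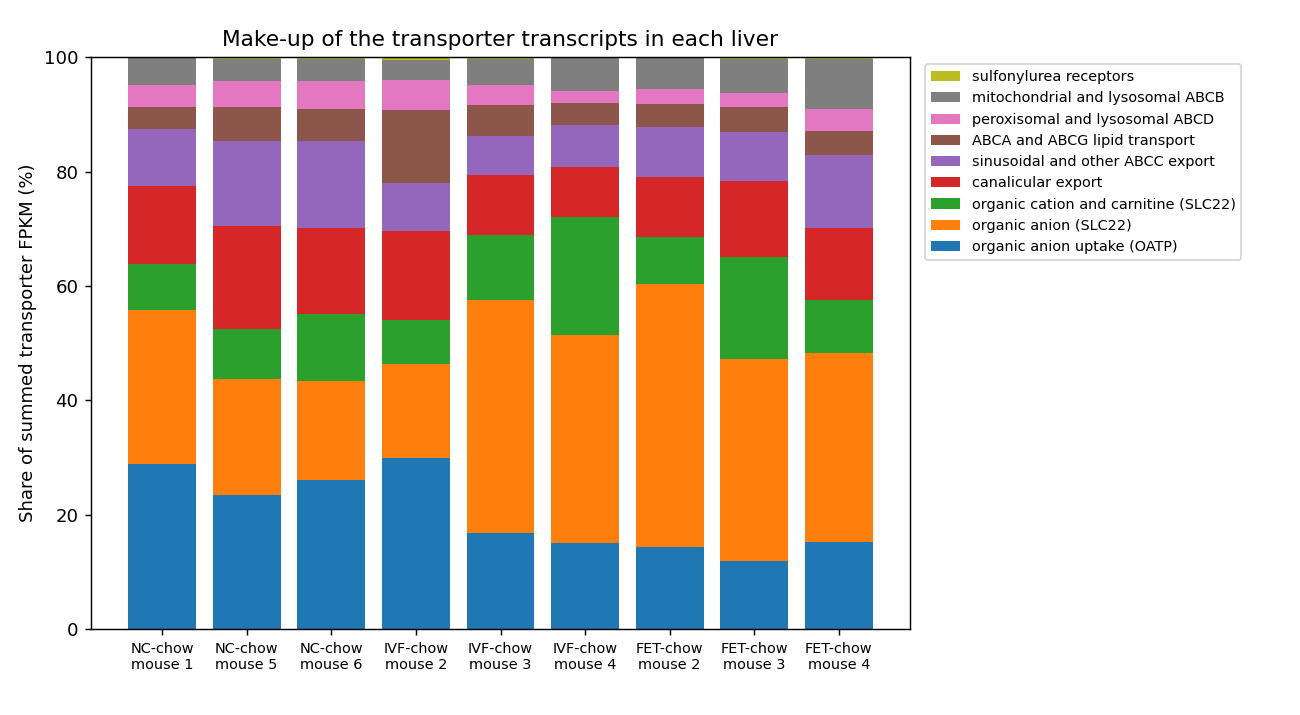
Share of the summed transporter FPKM (vertical axis, %) that fell to each role group in each of the 9 mice (bars). The OATP segment at the bottom spans 23.4% to 28.9% in NC-chow, 15.1% to 29.9% in IVF-chow and 11.9% to 15.2% in FET-chow, and the shares of 1 mouse add up to 100%.

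OATPs took 23.4% to 28.9% of the transporter FPKM in NC-chow and 11.9% to 15.2% in FET-chow, ranges that do not touch, and 15.1% to 29.9% in IVF-chow. SLC22 organic anion transporters took 17.2% to 27.0%, 33.2% to 46.0% and 16.5% to 40.8% in NC-chow, FET-chow and IVF-chow, so NC-chow and FET-chow did not overlap here either. Much of both shares lay in single genes, as Slco1b2 made up 17.7% ± 4.23 of the transporter FPKM in NC-chow and 8.08% ± 1.58 in FET-chow, and Slc22a30 16.4% ± 4.96 and 30.6% ± 7.24 (SD, n = 3). Such shares are tied to each other, because a rise in the share of one group lowers the others. Canalicular exporters held 13.6% to 18.1% in NC-chow, 8.73% to 15.6% in IVF-chow and 10.4% to 13.2% in FET-chow. Mitochondrial and lysosomal ABCB genes held 3.79% to 4.60% in NC-chow and 5.55% to 8.72% in FET-chow, and ABCD genes 3.95% to 5.02% and 2.41% to 3.94%. The canalicular, ABCB and ABCD shares thus also did not overlap between NC-chow and FET-chow. Organic cation and carnitine SLC22 genes held 8.03% to 11.7% in NC-chow and 8.20% to 17.9% in FET-chow. Sinusoidal and other ABCC exporters held 9.87% to 15.1% and 8.59% to 12.8%, and ABCA and ABCG lipid transporters 3.89% to 5.89% and 3.95% to 4.43%. These shares and that of the sulfonylurea receptor genes (Abcc8 and Abcc9) overlapped. Such shares have no counterpart over all genes here.

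No transporter gene passed the test in any of the comparisons (limma, adjusted p under 0.05). For FET-chow against NC-chow, 0 of 31 were called where 0.237% of the 6755 genes tested were, for IVF-chow against NC-chow 0 of 31 where 0.0592% were, and for FET-chow against IVF-chow 0 of 31 where 0.0888% were. At an unadjusted p under 0.05 there were 5, 3 and 2 transporter genes in these comparisons, beside 12%, 4.07% and 4.01% of all genes tested. Lower estimates made up all 5, all 3 and 1 of these, beside 10.1%, 2.86% and 2.95% of all genes. None of the other settings called a transporter gene, and the lowest adjusted p under any of them was 0.0991, for Slco2b1 in FET-chow against NC-chow without NC-chow mouse 1. What follows are levels and differences that did not pass the test.

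Over the 31 genes, log2 fold changes of FPKM + 1 had medians of -0.64 (FET-chow against NC-chow), -0.38 (IVF-chow against NC-chow) and -0.36 (FET-chow against IVF-chow), where the medians of all genes tested were -0.46, -0.25 and -0.20. An estimate below 0 was seen for 27, 22 and 23 of the 31, against 74.3%, 68.8% and 65.4% of all genes tested. After rescaling to protein-coding FPKM, which leaves 29 members with a mean of at least 1, these counts were 17, 18 and 18 of 29, against 51.3%, 55.0% and 46.6%, and with median-ratio scaling 19, 16 and 20 of 29, against 55.8%, 48.8% and 57.9%. The first 2 of these comparisons share the NC-chow mice. With NC-chow mouse 1 as the only control the medians were 0.06 and 0.19, and without NC-chow mouse 1, 5 or 6 the first was -1.15, -0.52 or -0.32. The median for FET-chow against IVF-chow was 0.15 without IVF-chow mouse 4 and -0.05 without FET-chow mouse 4. After rescaling, the median was -0.24 for FET-chow against NC-chow where that of all genes was -0.02.

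**Figure D3:**
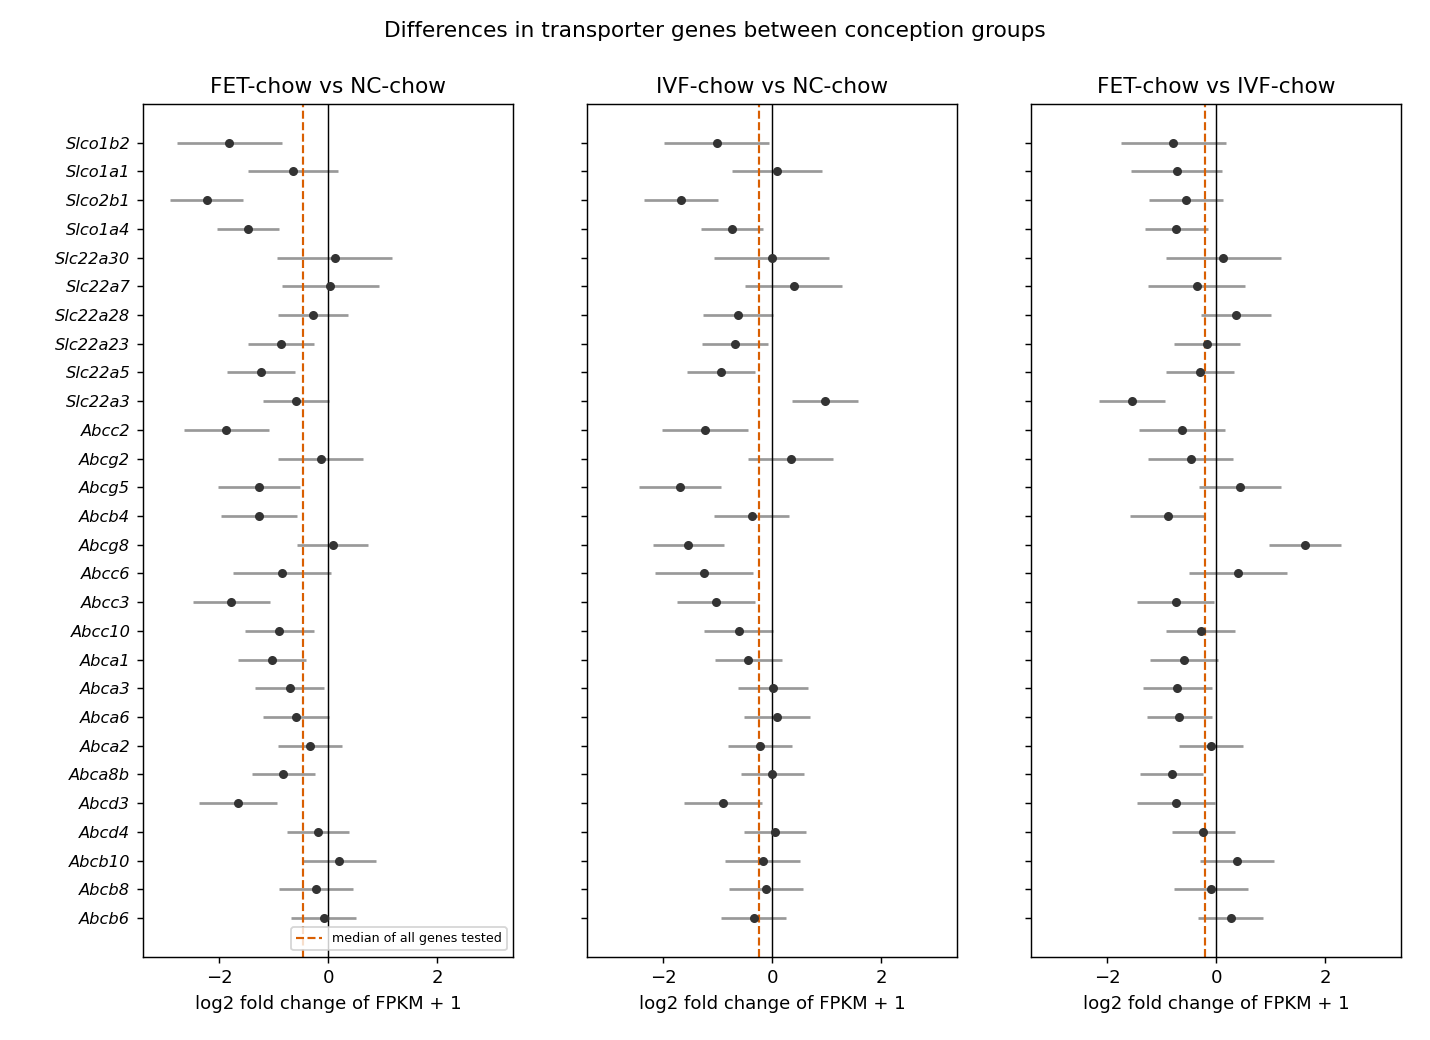
log2 fold change of FPKM + 1 (horizontal axis) for 28 of the 31 transporter genes tested, 1 panel per comparison, with bars of 1 SE on either side of each estimate from limma. The dashed line marks the median of all genes tested, and no gene had an adjusted p under 0.05.

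All mice of one group lay below all mice of the other for 6 of 31 genes in FET-chow against NC-chow (Abca1, Abcc2, Abcc3, Slco1a4, Slco1b2 and Slco2b1), where 17.1% of all genes tested did so, and no gene lay above, where 1.98% did. For IVF-chow against NC-chow 4 genes lay below (Abcc2, Abcg8, Slc22a28 and Slco2b1; background 5.46%) and none above (0.77%). For FET-chow against IVF-chow 2 lay below (Abca8b and Slc22a3; 2.56%) and 1 above (Abcg8; 1.27%). On the rescaled values Abca1, Abcc2, Abcc3, Slco1b2 and Slco2b1 still lay below NC-chow in every FET-chow mouse, where the background was 10.8%, and Abcb10, Abcg2 and Slc22a30 lay above, where it was 10.4%. Rescaled IVF-chow mice lay below all NC-chow mice for Abcc3, Abcg5, Slc22a5 and Slco2b1 (11.2%) and above for Abcg2 (4.92%). Rescaled FET-chow mice lay above all IVF-chow mice for Abcb6, Abcg5 and Abcg8 (7.01%) and below for none of the 29 (5.32%).

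**Figure D4:**
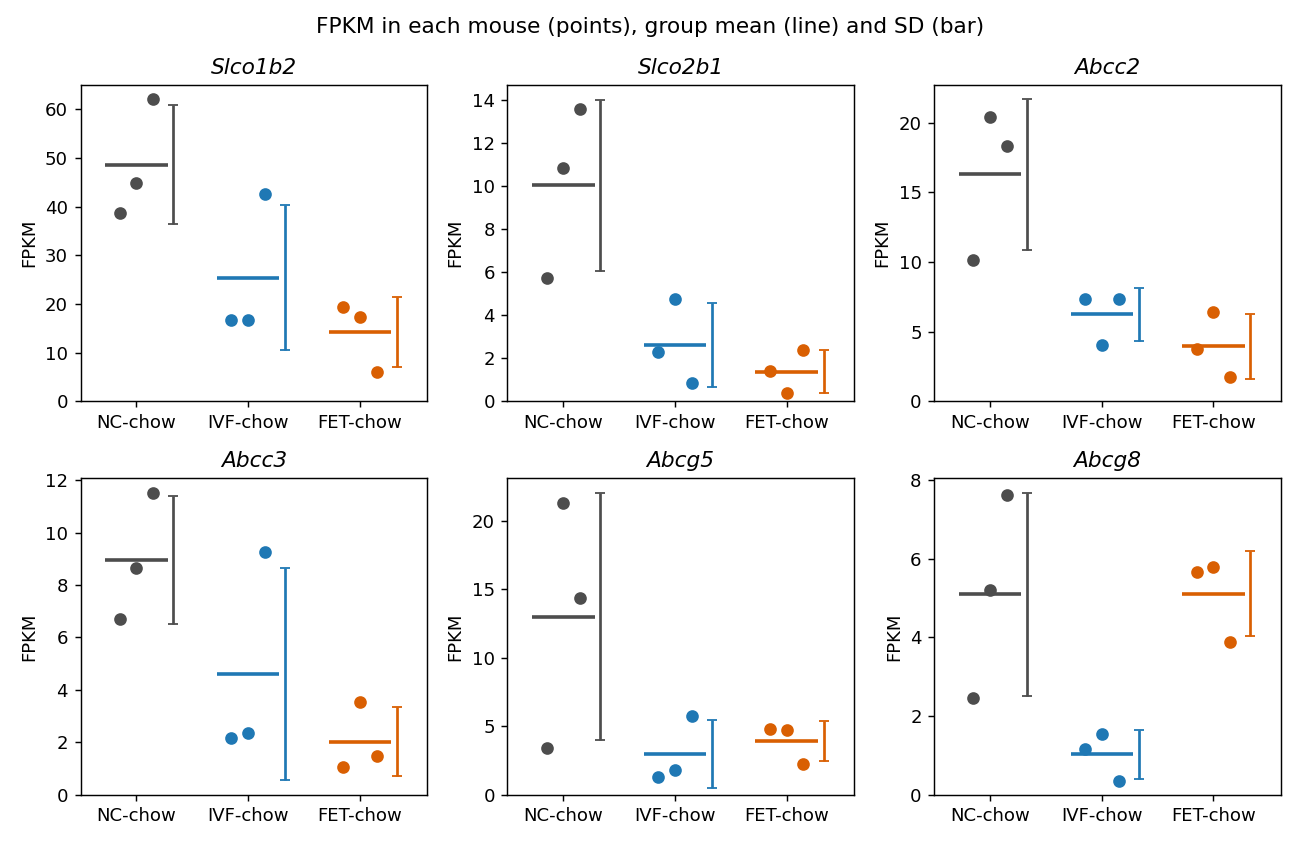
FPKM of 6 transporter genes in each mouse (points), with the group mean (horizontal line) and SD (bar beside the points), n = 3 mice per group. In Slco1b2, Slco2b1, Abcc2 and Abcc3 the FET-chow points lie below all NC-chow points, and in Abcg8 the IVF-chow points lie below those of both other groups.

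Among the OATPs, Slco1b2 (chr6:141629518-141686646 in GRCm38, plus strand) had 38.6, 44.9 and 62.2 FPKM in NC-chow, 16.8, 16.7 and 42.5 in IVF-chow and 19.4, 17.3 and 6.07 in FET-chow. The highest FET-chow mouse stood at about the level of the lower IVF-chow mice and under every NC-chow mouse. Group means were 48.5 ± 12.2, 25.3 ± 14.9 and 14.2 ± 7.16 FPKM (SD, n = 3), and the log2 fold change for FET-chow against NC-chow was -1.81 with an SE of 0.96 and an adjusted p of 0.453. Over all settings it lay between -2.10 and -1.22.

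Slco2b1, the carrier of steroid sulfates and statins that is also present in gut, had 5.71, 10.8 and 13.6 FPKM in NC-chow, 2.27, 4.74 and 0.872 in IVF-chow and 1.39, 0.377 and 2.38 in FET-chow. Every mouse of both embryo-transfer groups lay below every NC-chow mouse. These values rest on an estimated 165 to 793 fragments per NC-chow mouse, taken over the longest annotated transcript, but on 15 to 93 in IVF-chow and 5 to 31 in FET-chow. The log2 fold change of FPKM + 1 was -2.23 (SE 0.68, adjusted p 0.131) for FET-chow against NC-chow. On that scale it was the largest difference in size among the transporter genes in that comparison. With a pseudocount of 0.1 it was -2.98, and Slco1a4 had a larger one of -3.65. For IVF-chow against NC-chow the log2 fold change of Slco2b1 was -1.68 (SE 0.68, adjusted p 0.877).

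Slco1a4, which carries bile salts and steroid conjugates, was listed at 1.18, 3.23 and 2.22 FPKM in NC-chow, 0.256, 1.21 and 1.3035 in IVF-chow and 0, 0.395 and 0 in FET-chow. It is the lowest of the 31, so the FET-chow values correspond to an estimated 0 to 4 fragments. Slco1a1, an OATP that is higher in male than in female rodent liver, was at 3.72, 14.8 and 17.2 in NC-chow, 7.48, 7.82 and 20.6 in IVF-chow and 6.45, 8.58 and 3.99 in FET-chow. Its groups overlapped throughout, and its log2 fold change of -0.64 for FET-chow against NC-chow (SE 0.83, adjusted p 0.803) stayed below 0 under both scalings but was 0.59 with NC-chow mouse 1 as the only control.

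Against NC-chow, all 4 OATPs tested had estimates below 0 in FET-chow (median -1.64) and 3 did in IVF-chow (median -0.88). Of all genes tested, 74.3% and 68.8% had estimates below 0 in these comparisons, with medians of -0.46 and -0.25. After rescaling, the estimate of Slco1a1 in FET-chow was -0.07, and Slco1a4 fell below a mean of 1 and was not tested. Slco1a1, Slco1a4 and Slco1b2 lie near each other on chromosome 6, and Slco2b1 is on chromosome 7.

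Of the SLC22 organic anion transporters, Slc22a30 (chr19:8335371-8405111 in GRCm38, minus strand) had 38.2, 46.4 and 47.6 FPKM in NC-chow, 10.985, 64.0 and 113.5 in IVF-chow and 75.7, 59.9 and 24.1 in FET-chow. The IVF-chow and FET-chow mice spread to both sides of the NC-chow mice as deposited, and its log2 fold change was 0.13 for FET-chow and -0.01 for IVF-chow against NC-chow, with an SE of 1.05 for each. After rescaling, every FET-chow mouse (46.7 to 83.6) lay above every NC-chow mouse (30.6 to 41.1), and the log2 fold change for FET-chow against NC-chow was 0.75. Of the 75-base windows of its transcripts, 26.7% also occur in Slc22a28, Slc22a29, Slc22a27 or Slc22a19, and how the counting split such fragments is not given in the sources used here.

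Within a mouse the level of Slco1b2 relative to Slc22a30 does not depend on any scaling. It was 1.009, 0.968 and 1.31 in NC-chow, 1.53, 0.262 and 0.375 in IVF-chow and 0.256, 0.288 and 0.252 in FET-chow. The FET-chow mice were all below the NC-chow mice, and of the IVF-chow mice numbers 3 and 4 were low and number 2, the library with 61.9% of FPKM in non-coding entries, was high. This pair was chosen after its values were seen, so the ratio is a description and was not tested.

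Slc22a7 (OAT2, a carrier of nucleobases and dicarboxylates) had 2.88, 11.2 and 7.80 FPKM in NC-chow, 1.202, 9.60 and 39.9 in IVF-chow and 11.7, 12.7 and 1.60 in FET-chow, with overlap in each comparison. Slc22a28, a neighbour of Slc22a30 that shares 44.8% of its windows with the same cluster, was nearly even in NC-chow (2.76 to 3.11) and ranged from 0.804 to 2.34 in IVF-chow and from 0.421 to 7.79 in FET-chow. Slc22a23, an orphan member, spanned 0.437 to 4.16 over the 9 mice. Of the 4 organic anion carriers tested, 2 had estimates below 0 and 2 above in FET-chow against NC-chow, with a median of -0.12.

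Slc22a5 (OCTN2, which takes up carnitine) ranged from 2.63 to 4.79 in NC-chow, 0.430 to 3.76 in IVF-chow and 0 to 3.21 in FET-chow, and 17.1% of its windows also occur in Slc22a21.

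Slc22a3 (OCT3, an organic cation carrier of low hepatic level) was listed at 0, 1.18 and 0.802 FPKM in NC-chow, 0.318, 2.28 and 5.80 in IVF-chow and 0, 0.158 and 0 in FET-chow. Every FET-chow mouse lay below every IVF-chow mouse, on an estimated 0 to 2 fragments against 11 to 93. The log2 fold change for FET-chow against IVF-chow was -1.55 (SE 0.61, unadjusted p 0.0139, adjusted p 1). Over the settings that tested this gene it lay between -3.72 and -0.98. The exons of Slc22a3 overlap those of Plg, a highly expressed liver gene, on the opposite strand.

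In the canalicular membrane, Abcc2 (MRP2, which exports bilirubin glucuronides and other conjugates) had 10.2, 20.4 and 18.3 FPKM in NC-chow, 7.38, 4.05 and 7.33 in IVF-chow and 3.75, 6.38 and 1.72 in FET-chow. Both embryo-transfer groups lay wholly below NC-chow and overlapped each other. Means were 16.3 ± 5.40, 6.25 ± 1.91 and 3.95 ± 2.34 FPKM (SD, n = 3), with log2 fold changes of -1.87 (SE 0.78, adjusted p 0.334) for FET-chow and -1.24 (SE 0.78, adjusted p 1) for IVF-chow against NC-chow. After rescaling, IVF-chow mouse 2 stood at 18.98, above the NC-chow range of 10.9 to 14.9, whereas the FET-chow mice stayed below it at 3.81 to 4.97.

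Abcg2 (BCRP, an exporter of sulfate conjugates, urate and many drugs) had 4.20, 4.97 and 6.85 FPKM in NC-chow, 1.83, 8.38 and 17.5 in IVF-chow and 4.50, 9.61 and 2.17 in FET-chow. Its groups overlapped as deposited. After rescaling, all IVF-chow mice (4.71 to 7.72) and all FET-chow mice (4.81 to 7.49) lay above all NC-chow mice (3.63 to 4.51), by small margins, while the log2 fold change for FET-chow against NC-chow went from -0.13 to 0.36. Abcb4, the flippase that supplies phosphatidylcholine to bile, was at 3.13, 5.88 and 8.82 in NC-chow, 2.41, 3.59 and 7.14 in IVF-chow and 1.61, 4.34 and 0.428 in FET-chow, with a log2 fold change of -1.27 (SE 0.69, adjusted p 0.464) for FET-chow against NC-chow.

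Abcg5 and Abcg8 encode the subunits of a single sterol pump, which reaches the canalicular membrane only as the pair. Abcg5 had 3.38, 21.3 and 14.3 FPKM in NC-chow, 1.29, 1.83 and 5.79 in IVF-chow and 4.82, 4.73 and 2.21 in FET-chow. Abcg8 had 2.46, 5.21 and 7.62 in NC-chow, 1.159, 1.55 and 0.353 in IVF-chow and 5.66, 5.80 and 3.88 in FET-chow. Abcg8 in FET-chow therefore lay within the NC-chow range and above every IVF-chow mouse, while Abcg5 in FET-chow lay within the IVF-chow range and overlapped NC-chow.

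For IVF-chow against NC-chow the log2 fold changes were -1.70 (SE 0.75, adjusted p 1) for Abcg5 and -1.54 (SE 0.65, adjusted p 0.927) for Abcg8, with unadjusted p of 0.0288 and 0.0224, and -0.31 and -0.82 with NC-chow mouse 1 as the only control. For FET-chow against NC-chow they were -1.27 (SE 0.75, adjusted p 0.508) and 0.08 (SE 0.65, adjusted p 0.973), and with NC-chow mouse 1 as the only control Abcg5 was at 0.12. Between FET-chow and IVF-chow Abcg8 differed by 1.63 (SE 0.65, adjusted p 1), the largest positive difference among the transporter genes in that comparison, and by 1.36 to 2.39 over all settings.

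The ratio of Abcg5 to Abcg8 within a mouse was 1.38, 4.09 and 1.88 in NC-chow, 1.11, 1.18 and 16.4 in IVF-chow and 0.852, 0.816 and 0.571 in FET-chow. Abcg5 was the higher of the pair in all NC-chow and IVF-chow mice, and Abcg8 in all FET-chow mice. The value of 16.4 rests on an estimated 5 fragments of Abcg8 in IVF-chow mouse 4. This ratio was also chosen after the values were seen and was not tested.

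These genes stand head to head on chromosome 17, Abcg5 on the minus and Abcg8 on the plus strand, with 109 bases between the start of Abcg5 and the Abcg8 start nearest to it. A second annotated start of Abcg8, at position 84676302, lies within Abcg5. The annotated exons of the pair share 82 bases, 3.02% of the exonic bases of Abcg5 and 2.19% of those of Abcg8, and whether the libraries kept strand is not given in the sources used here. The stretch of 109 bases lies upstream of Abcg5 and of that nearest Abcg8 start. It is shown because the pair is known to share its promoter region. The upstream sequence of Slco1b2 is shown as that of a gene whose FET-chow values lay below NC-chow as deposited and after rescaling. This also held for Abca1, Abcc2, Abcc3 and Slco2b1, whose sequences are not shown. Both sequences shown are on the plus strand of GRCm38.p6 from RefSeq, with matches in capitals, for chr17:84683012-84683120 and chr6:141629268-141629517.
Abcg5-Abcg8 interval: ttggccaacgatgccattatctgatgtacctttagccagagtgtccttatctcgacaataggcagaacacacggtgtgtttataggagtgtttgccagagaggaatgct
Slco1b2 upstream: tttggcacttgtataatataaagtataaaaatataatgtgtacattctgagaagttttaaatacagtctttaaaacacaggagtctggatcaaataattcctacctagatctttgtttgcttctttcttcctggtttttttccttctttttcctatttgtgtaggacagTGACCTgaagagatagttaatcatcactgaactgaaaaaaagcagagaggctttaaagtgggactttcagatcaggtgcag

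The capitals mark AGGTCA on the minus strand, whose leftmost base lies 81 bases before the start site of Slco1b2. Motifs searched on both strands were AGGTCA, a hexamer bound by nuclear receptors, TGACNNNGC, the core of antioxidant response elements, and the palindromic consensus of the HNF1 site. No motif was found in the interval between Abcg5 and Abcg8. RefSeq windows of 300 bases, 250 before and 50 after a start, were matched for 66 of the 83 genes and for 22 of the 31 tested, with 29 windows for the latter. AGGTCA occurred in 8 of these 29 (27.6%) and in 16.3% of all 32851 windows, TGACNNNGC in 4 (13.8%) and in 12.4%, and the HNF1 consensus in none and in 0.009%. A TGACNNNGC match may overlap one of AGGTCA, and a match is a string of letters, not evidence of binding.

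Of the exporters that face blood, Abcc3 (MRP3, which returns glucuronides to the circulation) had 6.69, 8.64 and 11.5 FPKM in NC-chow, 2.15, 2.36 and 9.26 in IVF-chow and 1.05, 3.53 and 1.48 in FET-chow. All FET-chow mice lay below all NC-chow mice, and IVF-chow mouse 4 reached the NC-chow range. The log2 fold change for FET-chow against NC-chow was -1.78 (SE 0.71, adjusted p 0.298) as deposited and -1.28 (SE 0.37, adjusted p 0.178) after rescaling.

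Abcc6 had 9.13, 33.4 and 39.1 FPKM in NC-chow, 4.61, 8.27 and 18.9 in IVF-chow and 14.5, 14.0 and 9.20 in FET-chow. NC-chow mouse 1 stood apart from NC-chow mice 5 and 6 at about the level of the other groups, and the log2 fold change for FET-chow against NC-chow was -0.85 (SE 0.90) with all mice and 0.40 with NC-chow mouse 1 alone. Abcc10, a basolateral exporter of wide distribution, ranged from 0.988 to 4.65 in NC-chow, 0.592 to 3.24 in IVF-chow and 0 to 2.85 in FET-chow.

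Lipid transporters of the ABCA family were low in all mice. Abca1, which loads cholesterol onto apolipoprotein A-I, had 2.85, 4.61 and 4.18 FPKM in NC-chow, 3.00, 1.37 and 3.78 in IVF-chow and 2.02, 1.84 and 0.527 in FET-chow. Every FET-chow mouse was below every NC-chow mouse, with a log2 fold change of -1.03 (SE 0.62, adjusted p 0.520). Abca8b, linked to sterol efflux, had 0.652, 2.35 and 2.13 in NC-chow, 1.26, 1.79 and 1.75 in IVF-chow and 0.475, 1.03 and 0.0466 in FET-chow, and its FET-chow mice lay below all IVF-chow mice. Abca2, Abca3 and Abca6 spanned 0 to 4.46 FPKM over the 9 mice. All 5 ABCA genes tested had estimates below 0 in FET-chow against NC-chow, with a median of -0.70. In that comparison 74.3% of all genes tested had estimates below 0, and the median of all genes tested was -0.46. After rescaling, the FET-chow mean was below the NC-chow mean for Abca1, Abca3, Abca6 and Abca8b and slightly above it for Abca2.

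Among the peroxisomal half-transporters, Abcd3 (PMP70, needed for import of bile acid intermediates and branched or dicarboxylic fatty acids) had 3.26, 11.4 and 14.0 FPKM in NC-chow, 3.84, 3.11 and 5.11 in IVF-chow and 0.828, 4.07 and 1.78 in FET-chow. NC-chow mouse 1 overlapped both other groups, and the log2 fold change for FET-chow against NC-chow was -1.65 (SE 0.71, adjusted p 0.347) with all mice but -0.53 against NC-chow mouse 1 alone. Abcd4, which acts in lysosomal export of cobalamin, had a log2 fold change of -0.19 in that comparison.

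The 4 mitochondrial and lysosomal ABCB genes tested had a median log2 fold change of -0.11 for FET-chow against NC-chow. Abcb10, a mitochondrial inner membrane protein linked to heme synthesis, had 2.17, 4.09 and 3.90 FPKM in NC-chow, 0.823, 2.11 and 8.68 in IVF-chow and 4.49, 4.19 and 3.22 in FET-chow. The groups overlapped as deposited, with a log2 fold change of 0.20 (SE 0.68, adjusted p 0.933) for FET-chow against NC-chow. After rescaling, the FET-chow mice (3.27 to 7.16) lay above the NC-chow mice (2.33 to 2.98). Abcb8 and Abcb6 had log2 fold changes of -0.22 and -0.08 in the same comparison, and 47.5% of the windows of Abcb6 also occur in the readthrough gene Gm29253.

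Genes that work beside these families were drawn from lists written by hand. Of 14 transcription factors that regulate transporter genes, 13 were tested and none was called. At an unadjusted p under 0.05, estimates were lower for 3 of them when FET-chow was compared with NC-chow, for 2 when IVF-chow was, and for 2 between FET-chow and IVF-chow, beside 10.1%, 2.86% and 2.95% of all genes, and higher for none. The 3 with the highest mean FPKM, Nr1h4 (the bile acid receptor FXR), Nr1i3 (the xenobiotic receptor CAR) and Hnf4a (a master regulator of hepatocyte genes), had log2 fold changes of 0.32, 0.08 and -0.77 in FET-chow against NC-chow, with SEs of 1.05, 0.97 and 0.95.

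Nfe2l2 (NRF2, which drives Abcc2 and Abcc3 under oxidative or electrophilic stress) was the regulator with the largest difference and is named after its values were seen. It had 13.5, 35.1 and 37.7 FPKM in NC-chow, 1.85, 4.49 and 10.8 in IVF-chow and 3.74, 2.65 and 0.364 in FET-chow, without overlap between NC-chow and either other group. Its log2 fold change was -3.25 (SE 0.80, adjusted p 0.0519) for FET-chow and -2.26 (SE 0.80, adjusted p 0.619) for IVF-chow against NC-chow.

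Of 11 transporters and transport partners from other families, 7 were tested and none was called. Comparing FET-chow with NC-chow, 3 of the 7 had lower estimates at an unadjusted p under 0.05, beside 10.1% of all genes, and in the other comparisons none passed that level. Slc47a1 (MATE1, an exporter of organic cations) had 19.9, 68.7 and 77.96 FPKM in NC-chow, 5.33, 20.8 and 42.1 in IVF-chow and 11.03, 9.53 and 8.03 in FET-chow, with a log2 fold change of -2.22 (SE 0.97, adjusted p 0.350) for FET-chow against NC-chow. Slc10a1 (NTCP, the sodium-dependent uptake carrier of bile acids) had 21.7, 35.7 and 35.9 in NC-chow, 3.97, 10.7 and 44.0 in IVF-chow and 11.9, 8.38 and 2.83 in FET-chow, with a log2 fold change of -2.02 (SE 0.93, adjusted p 0.376). In these genes and in Slc29a1 every FET-chow mouse lay below every NC-chow mouse, as did 17.1% of all genes tested. Slc29a1, an equilibrative nucleoside transporter, had a log2 fold change of -1.08 (SE 0.97, adjusted p 0.702).

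Markers of liver cells are given beside these differences, and their part in them was not tested. The 8 hepatocyte genes, all above the filter, had median log2 fold changes of -1.30 (FET-chow) and -0.21 (IVF-chow) against NC-chow, and none was called. Summed FPKM of 7 Kupffer cell genes was 18.0 to 38.3 in NC-chow, 6.56 to 52.2 in IVF-chow and 12.4 to 87.0 in FET-chow, and that of 5 cholangiocyte genes was 8.01 to 17.0, 1.55 to 10.3 and 1.66 to 9.71. For 7 endothelial genes the sums were 11.1 to 15.8, 3.81 to 13.0 and 8.04 to 11.8, and for 7 stellate cell genes 19.6 to 36.3, 9.69 to 61.8 and 29.6 to 67.9. Those of 5 erythroid genes were 335 to 850, 77.96 to 388 and 177 to 591, and of 5 lymphocyte and neutrophil genes 1.08 to 3.29, 0.430 to 12.6 and 0.0379 to 0.908. No marker was listed at 0 in all 9 mice.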

How the data were processed

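Total RNA of 9 livers (3 per group) was sequenced on an Illumina system. The authors trimmed the reads, mapped them to the genome and deposited FPKM values, 1 column per mouse. The submitters' processing notes name FastQC 0.11.5, STAR 2.5.3a, StringTie 1.3.1c and DESeq2 1.16.1 without a role. The genome build, the annotation and strandedness are not given in the sources used here. FPKM depends on all other transcripts of a library, and no scaling between mice is stated.

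Groups came from the labels, and sex and diet from the paper. Identifiers were joined to GENCODE vM21 (55154 of 55335 matched). The 6755 genes whose mean FPKM over the 9 mice reached 1 were tested in limma 3.58.1 (R 4.3.3) on log2(FPKM + 1), with 3 groups in 1 fit, a trend on the mean, two-sided tests and Benjamini-Hochberg adjustment over all genes tested. Fold changes on this scale understate those of low genes. The fit was tested on simulated data. Depth was estimated from whole-fragment steps of up to 8 fragments (tolerance 2%), on which 34.7% to 44.1% of low values fell against 18% by chance, so fragment numbers are rough and no count test was run. Python 3.11.15 and pandas 2.3.3 were used for the rest.

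The members, role lists, marker lists and tests were chosen with earlier results of these data known. The rule for naming took the 15 members with the highest mean FPKM and the 5 with the largest difference per comparison. It also took those without overlap between FET-chow and NC-chow at an unadjusted p under 0.05. Further role-group members with a mean FPKM of at least 1 were named with their levels, and some with a fold change. Of the members tested, 3 enter the counts and medians and are not reported singly here. Alternatives were a pseudocount of 0.1, no filter, median-ratio scaling, rescaling to nuclear protein-coding FPKM, only the groups compared, NC-chow mouse 1 as the only control, the mouse number as a block, and each mouse left out. IVF-chow and FET-chow mice share numbers 2, 3 and 4, which the labels do not link.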

Additional observations from a re-analysis of the deposited data

How the results depend on the processing

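No transporter gene was called under any setting tried, and the lowest adjusted p was 0.0991, 0.433 and 0.198 (FET-chow against NC-chow, IVF-chow against NC-chow, FET-chow against IVF-chow, limma). The number of all genes called, 16, 4 and 6, was less stable. For FET-chow against NC-chow it was 0 without a filter, 26 with median-ratio scaling and 0 with only the groups compared. It was 1 to 83 with 1 mouse left out (83 without NC-chow mouse 1, 57 without FET-chow mouse 2, 1 without FET-chow mouse 3). With NC-chow mouse 1 as the only control, the spread comes from the other groups alone, so numbers of calls are not given for that setting. For IVF-chow against NC-chow the number called was 0 with a pseudocount of 0.1, without a filter, with median-ratio scaling, after rescaling and with only the groups compared. With 1 mouse left out it was 0 to 24. For FET-chow against IVF-chow it was 0 without a filter and with only the groups compared, and 0 to 10 with 1 mouse left out. The causes were not tested.

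With the shared mouse number as a replicate block, 2 genes were called in FET-chow against IVF-chow in place of 6, and no transporter gene was. Each number occurs in both groups, so the block cannot change a fold change, and the median of -0.36 is the same by construction. Residuals of same-numbered mice correlated at -0.131, 0.0215 and -0.255, and those of differently numbered mice at -0.143 to 0.292. Residuals were centred within groups of 3 mice, which ties these values to each other. They cannot decide whether the numbers pair the mice.

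The median log2 fold change of the members was 0.057 for FET-chow and 0.187 for IVF-chow against NC-chow with NC-chow mouse 1 as the only control. With 1 mouse left out it ranged from -1.15 to -0.32, from -0.72 to -0.10 and from -0.72 to 0.15 in the 3 comparisons. Over the 18 members chosen by the rule for naming, 58 of 636 alternative values had the opposite sign to the main one, in 25 of 54 results, none of them called. FET-chow libraries held an estimated 250000 to 600000 fragments on nuclear protein-coding genes, which limits members with a low FPKM.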
